A study of Mus musculus with 21 samples.

Results

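The TNF receptor superfamily is a family of membrane receptors that bind trimeric ligands of the TNF superfamily, and 10 of its genes, namely Cd40, Tnfrsf1a, Tnfrsf1b, Tnfrsf4, Tnfrsf9, Tnfrsf11a, Tnfrsf14, Tnfrsf18, Ltbr and Fas, are described here in conventional dendritic cells (cDCs) of the mouse thymus and spleen. They were chosen by gene symbol, with earlier results of these data known, and each symbol matched 1 of the 37734 genes listed for every library. The data were RNAseq values of 21 libraries of sorted cDCs from C57BL/6 mice aged 6-8 weeks, with no transgene, deletion or agent named for any group. The study asked how antigen-processing enzymes are regulated between thymic and splenic cDCs and with their maturation, and the comparisons below ask the same of these receptors. Within CD11c+ cells enriched with magnetic beads, cDC1 were gated as CD24+ and CD11b- after exclusion of F4/80, Ly6g, Ly6c, DX5 and B220, and cDC2 as B220-, CD24- and CD11b+. Immature cells were CCR7- Esam- and mature cells CCR7+ Esam+, and mature cells were taken from the thymus alone. Per the methods of the study, each library came from cells pooled from several mice. The labels do not say whether 2 libraries of a group came from different mice, so that p-values measure the spread between these libraries, which may be in part technical. For cDC1 the spleen gave 5 libraries and the thymus 4 immature and 3 mature ones, and for cDC2 each of the 3 kinds of cell gave 3.

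Receptors of this family signal through TRAF adaptors to NF-kB and MAP kinases, and those with a death domain can also lead to apoptosis. On dendritic cells CD40 is the best known member, because its ligand on activated T cells licenses the dendritic cell to prime T cells, and RANK prolongs dendritic cell survival. OX40 (Tnfrsf4), CD137 (Tnfrsf9) and GITR (Tnfrsf18) are better known as costimulatory receptors of T cells, regulatory T cells included. In the thymus, CD40, RANK and the lymphotoxin beta receptor are known for their role in the development of medullary epithelial cells.

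The values are normalized read counts, the reads of a gene divided by 1 size factor per library, and they compare samples for 1 gene but not genes of different length. Between 14266867 and 40119669 reads were recovered per library. Splenic cDC1 replicates 4 and 5 had the same number, index and lane in their labels and differed by less than any other pair of their group (chi-square per degree of freedom 2.53, against 26.9 to 190.4), so that they were averaged as 1 sample, which left 20 samples. Immature thymic cDC1 replicates 3 and 4 also shared number, index and lane, but they differed by more than any other pair of their group (100.5, against 24.6 to 93.6) and were counted as 2 of its 4 samples. Libraries were sequenced in lanes 5 and 8, and every mature library was in lane 8, so that values within lanes are given where they bear on a result. Defining markers were present: the summed level of 7 cDC1 markers lay between 175060 and 235001 in immature cDC1 and between 36538.5 and 70913 in immature cDC2, and that of 7 cDC2 markers between 551 and 3425 in immature cDC1 and between 40816 and 66471 in immature cDC2. In mature thymic cDC1 the cDC1 markers summed to 41400.2 to 45926, within the range of the immature cDC2, and 1 of the 7 cDC2 markers was at 0 in every sample. In mature thymic cDC2 the cDC1 markers summed to 16419 to 25648 and the cDC2 markers to 14073 to 18224. Within this group the ranges of the 2 lists overlapped, as they did in the immature cDC2 of both tissues. The lists hold genes of different length, so that their sums compare groups and not lists. In mature thymic cDC1 the cDC2 markers summed to 2114 to 3624, so that neither list overlapped between mature cDC1 and mature cDC2. Irf8, of the cDC1 list, had a mean of 13787 in mature cDC2 and 34273 in mature cDC1. Irf4, of the cDC2 list, had 8279 and 2358. Wdfy4, also of the cDC1 list, went the other way, with 2762 in mature cDC2 and 1215 in mature cDC1. Batf3 of that list had 4532 and 4998, and Xcr1, Clec9a, Cadm1 and Itgae had higher means in mature cDC1. A gene was called where the limma adjusted p was below 0.1 and the change more than 2-fold, on the log2 of the value plus 1. In bulk samples, fewer cells of a type and less RNA per cell cannot be told apart.

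Of the 10 genes, 5 lie on chromosome 4, and Tnfrsf4 (156013843 to 156016612 in mm10) and Tnfrsf18 (156026164 to 156028895) are neighbours on its plus strand. The others there are Tnfrsf9 (150914562 to 150946102, plus strand), Tnfrsf14 (154921933 to 154928563, minus strand) and Tnfrsf1b (145213463 to 145246870, minus strand). Tnfrsf1a (125349362 to 125362484, plus strand) and Ltbr (125306571 to 125313885, minus strand) both lie on chromosome 6. Cd40 is on chromosome 2 (165055627 to 165072948), Tnfrsf11a on chromosome 1 (105780718 to 105847981) and Fas on chromosome 19 (34290666 to 34327772), all on the plus strand. Exons of Tnfrsf18 overlap the antisense gene Gm16008 over 414 bases, and since the sources used here do not state the strand setting of the counting, its values are uncertain to that extent.

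RefSeq start sites (GRCm38.p6) were found for 9 of the 10 genes, all but Cd40, with 2 for Tnfrsf9. Because 8 of the members moved together with maturation, the 250 bases before each start were searched on both strands for the NF-kB consensus, a motif of 10 bases known as the kB site. It was found in 1 of the 10 windows, the second of Tnfrsf9, against 7.25% of 32817 windows of all genes, and a match is a description of letters and not a bound site. The match, 2 overlapping readings that begin 43 and 42 bases before the start, is shown in capitals in 30 bases at chr4:150927946-150927975 (plus strand). Of the whole window of 250 bases around it, 81 lie in exons annotated by GENCODE. The windows of Fas (chr19:34290409-34290658, plus strand) and Tnfrsf1b (chr4:145246871-145247120, minus strand), which rose, and of Ltbr (chr6:125313886-125314135, minus strand), which was not called, are shown with no match and so without capitals.
Tnfrsf9: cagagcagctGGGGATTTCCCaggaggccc
Fas: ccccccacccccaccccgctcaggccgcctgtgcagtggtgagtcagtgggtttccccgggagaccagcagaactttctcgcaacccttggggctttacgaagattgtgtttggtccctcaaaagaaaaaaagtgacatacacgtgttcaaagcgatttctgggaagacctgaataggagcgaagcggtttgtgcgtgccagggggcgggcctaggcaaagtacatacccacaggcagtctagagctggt
Tnfrsf1b: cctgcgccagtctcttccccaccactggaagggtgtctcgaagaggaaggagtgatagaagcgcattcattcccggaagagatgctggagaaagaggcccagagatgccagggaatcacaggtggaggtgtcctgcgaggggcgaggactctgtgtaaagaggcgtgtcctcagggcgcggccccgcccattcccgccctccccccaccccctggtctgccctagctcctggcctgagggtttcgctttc
Ltbr: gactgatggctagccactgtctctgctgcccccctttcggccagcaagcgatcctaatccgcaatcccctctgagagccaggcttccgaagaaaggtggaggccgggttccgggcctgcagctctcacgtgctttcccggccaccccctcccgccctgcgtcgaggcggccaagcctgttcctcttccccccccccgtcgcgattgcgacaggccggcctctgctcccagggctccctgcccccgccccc
The windows of the members also differed in CpG dinucleotides, with 31 in that of Tnfrsf11a, 18 in Ltbr, 12 in Tnfrsf1b, 11 in Fas and 9 in Tnfrsf1a, against a median of 6 over all windows. Lower counts were 5 in Tnfrsf4, 4 in each window of Tnfrsf9 and 2 each in Tnfrsf14 and Tnfrsf18. Of the 250 bases, 166 in Tnfrsf4, 158 in Tnfrsf18 and 125 in Tnfrsf14 lie in exons annotated by GENCODE.

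Between immature and mature thymic cells, 9 of the 10 receptors were called in cDC1 and 9 in cDC2. In each subset 8 rose, namely Cd40, Tnfrsf1b, Tnfrsf4, Tnfrsf9, Tnfrsf11a, Tnfrsf14, Tnfrsf18 and Fas, 1 fell, Tnfrsf1a, and Ltbr was not called. Of all 14970 genes tested, 45.7% were called in cDC1 (21.3% higher and 24.5% lower in mature cells) and 35.6% in cDC2 (18.6% higher and 17% lower). Because the members were chosen with earlier results of these data known, their distance from these shares is not a test of the family. The median log2 fold change of the members was 3.45 in cDC1 and 2.58 in cDC2, and that of all genes -0.04 and 0.04. Each of these calls was in the same direction with the edgeR and DESeq2 tests on the recovered reads and within lane 8 alone.

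**Figure D1:**
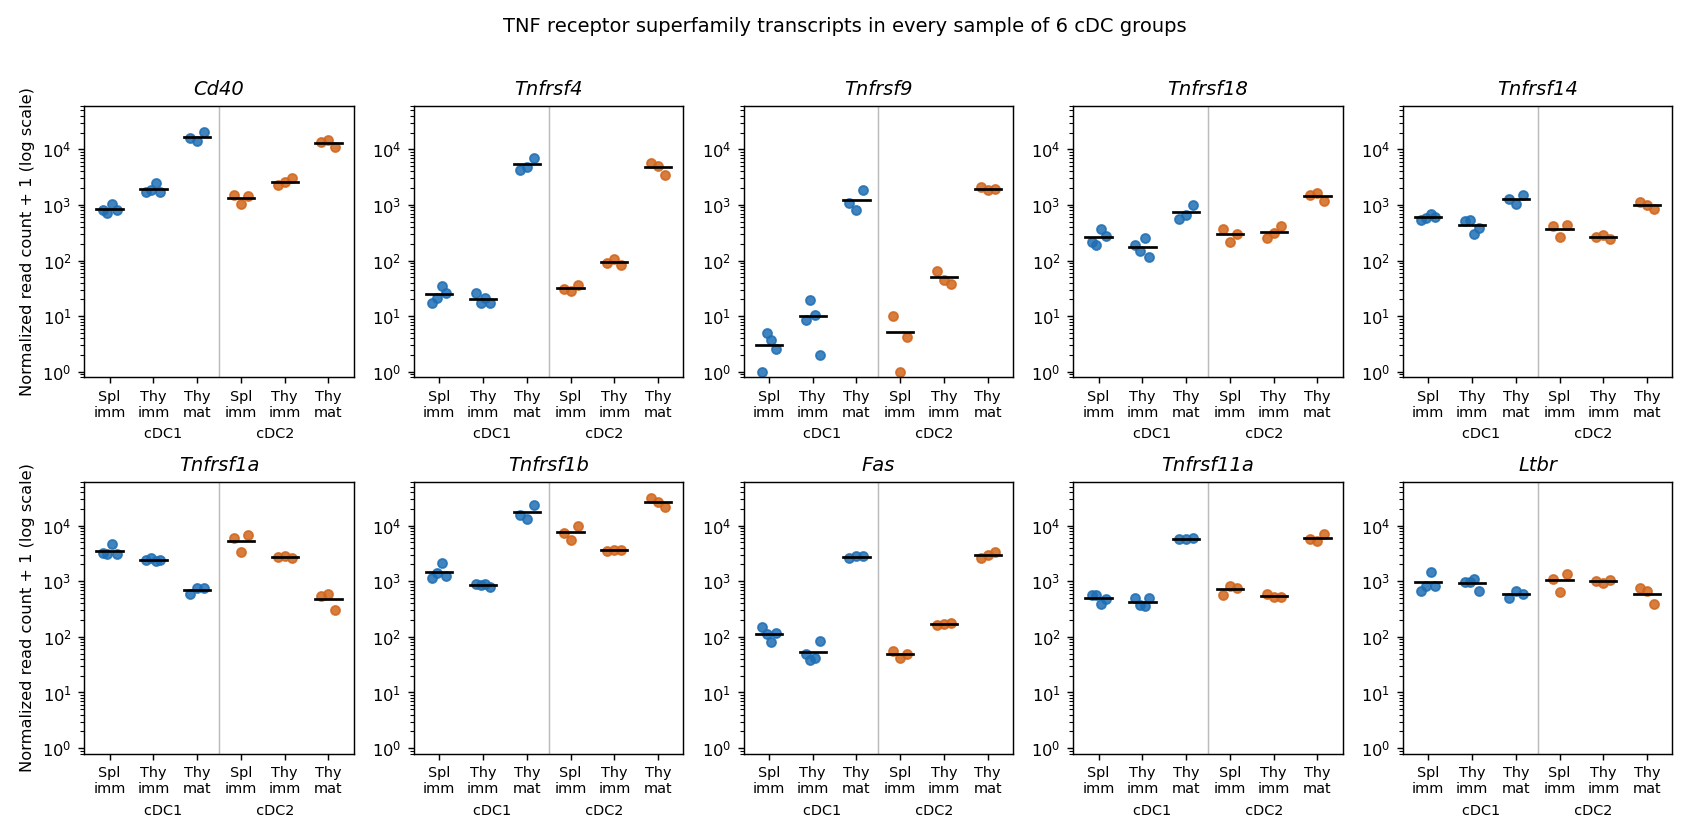
Normalized read count plus 1 (log axis) of the 10 receptors in each of the 20 samples, by group (Spl, spleen; Thy, thymus; imm, immature; mat, mature; blue, cDC1; orange, cDC2); black lines are group means. In 8 panels every mature sample lies above every immature one of its subset, from either tissue, whereas Tnfrsf1a shows the opposite, and for Ltbr mature and immature thymic samples overlap in cDC1 and not in cDC2.

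Cd40, the receptor for CD40 ligand, had normalized read counts of 817, 723, 1045 and 795 in splenic cDC1, of 1709, 1834, 2494 and 1717 in immature thymic cDC1 and of 16204, 13949 and 20296 in mature thymic cDC1. In cDC2 it had 1510.0, 1058 and 1431 in the spleen, 2268, 2636 and 3000.0 in immature thymic cells and 13249, 14508 and 10888 in mature ones. The 6 groups thus stood in 3 steps, spleen, immature thymus and mature thymus, with no overlap between steps within a subset. From immature to mature thymic cells it rose on the log2 scale by 3.12 (standard error (SE) 0.18, limma adjusted p = 8.89e-12) in cDC1 and 2.29 (SE 0.19, limma adjusted p = 5.91e-09) in cDC2. Thymic immature cDC1 exceeded splenic cDC1 by 1.19 (SE 0.17, limma adjusted p = 3.09e-05), and the same difference in cDC2 was 0.99 (SE 0.19, limma adjusted p = 8.23e-04), just under 2-fold and not called. Without splenic cDC2 replicate 1 or 3, or without thymic cDC2 replicate 1, the cDC2 difference passed 2-fold, at most 1.09. Mature thymic cDC1 and cDC2 overlapped, as did immature thymic cDC1 and cDC2, where the highest cDC1 sample, at 2494, stood apart from the other 3.

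Tnfrsf4, which encodes OX40, went from 13 to 158 reads per immature sample to normalized counts of at least 3501 in mature ones. It had 16.5, 20.7, 34.2 and 24.8 in splenic cDC1, 25.3, 16.7, 20.3 and 16.2 in immature thymic cDC1 and 4205, 4773 and 7094 in mature thymic cDC1. In cDC2 it had 29.3, 26.9 and 35.8 in the spleen, 89.7, 106 and 81.0 in immature thymic cells and 5717, 5063 and 3501 in mature ones. Both mature groups lay far above all others and overlapped each other, and immature thymic cDC2 was the only immature group that stood apart from the rest. The rise with maturation was 8.01 on the log2 scale (SE 0.28, limma adjusted p = 5.84e-15), a ratio of means of 273, in cDC1, and 5.65 (SE 0.30, limma adjusted p = 9.84e-12), a ratio of 51.7, in cDC2. These were the largest estimates among the 10 receptors in both subsets, although those of Tnfrsf9 lay within 2 of its SEs.

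Tnfrsf9, which encodes CD137, was almost undetected in immature cells outside the thymic cDC2. It had values of 0, 3.94, 2.77 and 1.59 in splenic cDC1 (0 to 5 reads per sample), 7.60, 18.3, 9.36 and 1.01 in immature thymic cDC1 (1 to 22 reads) and 1062, 794 and 1866 in mature thymic cDC1. Splenic cDC2 had 9.15, 0 and 3.26 (0 to 10 reads), immature thymic cDC2 65.1, 44.2 and 37.4, and mature thymic cDC2 2119.7, 1823 and 1965. Splenic cDC1, splenic cDC2 and immature thymic cDC1 overlapped, and the mature groups overlapped each other. The log2 fold change with maturation was 7.25 (SE 0.74, limma adjusted p = 4.51e-08) in cDC1 and 5.34 (SE 0.79, limma adjusted p = 1.20e-05) in cDC2. These are fitted on the value plus 1, and for so few immature reads they depend on that pseudocount.

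Tnfrsf18, which encodes GITR, rose less and from a higher level. Splenic cDC1 had 219, 189, 370.3 and 281, immature thymic cDC1 189, 151, 256 and 115, and mature thymic cDC1 562, 649.9 and 986. In splenic cDC2 the values were 363, 217 and 301, in immature thymic cDC2 255, 311 and 409.7, and in mature thymic cDC2 1529, 1646 and 1172. All 4 immature groups overlapped, and mature cDC2 lay above mature cDC1 with no overlap. It rose by 2.06 (SE 0.29, limma adjusted p = 3.71e-06) in cDC1 and 2.16 (SE 0.31, limma adjusted p = 7.78e-06) in cDC2.

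Tnfrsf14, which encodes HVEM, a receptor for the ligand LIGHT and for BTLA, had 539, 583, 673 and 608 in splenic cDC1, 504, 531, 295 and 380.0 in immature thymic cDC1 and 1276, 1048 and 1494 in mature thymic cDC1. The cDC2 values were 413, 266 and 429 in the spleen, 259, 291 and 245 in immature thymic and 1130.1, 1008 and 855 in mature thymic cells. Mature samples were above all immature ones, by 1.60 (SE 0.21, limma adjusted p = 1.62e-06) in cDC1 and 1.90 (SE 0.23, limma adjusted p = 6.91e-07) in cDC2, the smallest estimates of the 8 rises in each subset. Its mean was lower in cDC2 than in cDC1 in the spleen, the immature thymus and the mature thymus, with overlap in the last, and none of these differences was called.

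The 2 receptors for TNF itself moved in opposite directions. Tnfrsf1a, which encodes the broadly expressed receptor with a death domain, had 3220.1, 3029.7, 4695 and 3070.2 in splenic cDC1, 2407, 2561, 2297 and 2382 in immature thymic cDC1 and 575, 738 and 746 in mature thymic cDC1. It had 5907, 3358 and 6818 in splenic cDC2, 2752, 2794 and 2587 in immature thymic cDC2 and 547, 585 and 307 in mature thymic cDC2. Every mature sample was below every immature sample, and it fell by 1.82 on the log2 scale (SE 0.23, limma adjusted p = 8.32e-07) in cDC1 and fell by 2.55 (SE 0.24, limma adjusted p = 3.87e-08) in cDC2. Tnfrsf1b, which encodes the TRAF-binding receptor without a death domain, had 1128, 1408, 2116 and 1238 in splenic, 906, 865, 882 and 796 in immature thymic and 15505, 13351 and 23816 in mature thymic cDC1. The corresponding cDC2 values were 7244, 5515 and 9977, then 3484, 3664 and 3559, then 30847, 26574 and 21469. With maturation it rose by 4.30 (SE 0.22, limma adjusted p = 1.59e-12) in cDC1 and 2.87 (SE 0.24, limma adjusted p = 4.49e-09) in cDC2. Per kb of exonic length, the mean level of Tnfrsf1a was higher than that of Tnfrsf1b in each immature group, with 931 against 226 in immature thymic cDC1 and 2069 against 1985 in splenic cDC2, and lower in the mature groups, with 265 against 4599 in cDC1 and 185 against 6888 in cDC2.

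Fas, the death receptor for Fas ligand, had values of 149, 109, 81.3 and 114 in splenic cDC1, of 47.3, 36.6, 40.6 and 83.9 in immature thymic cDC1 and of 2575, 2778 and 2796 in mature thymic cDC1. In cDC2 it had 54.9, 41.2 and 48.9 among splenic samples, 159, 166 and 173 among immature thymic samples and 2596, 3010.2 and 3369 among mature ones. Immature thymic cDC2 stood above the other 3 immature groups with no overlap, and the mature groups overlapped each other. The rise with maturation was 5.75 (SE 0.25, limma adjusted p = 1.76e-13) in cDC1 and 4.16 (SE 0.27, limma adjusted p = 1.86e-10) in cDC2.

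Tnfrsf11a and Ltbr encode RANK and the lymphotoxin beta receptor, which with CD40 are known activators of the non-canonical NF-kB pathway. Tnfrsf11a had 558, 574, 393 and 478 in splenic, 488, 376, 362 and 490.1 in immature thymic and 5801, 5624 and 6074 in mature thymic cDC1. Its cDC2 values were 565, 803 and 763 in the spleen, 592, 526 and 522 in immature thymic and 5828, 5301 and 7126 in mature thymic cells. The immature groups lay side by side and the mature groups overlapped, so that maturation was the only comparison in which it was called, with rises of 3.78 (SE 0.17, limma adjusted p = 1.88e-13) in cDC1 and 3.47 (SE 0.18, limma adjusted p = 6.52e-12) in cDC2.

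Ltbr had 667, 832, 1479 and 811 in splenic, 971, 969, 1075 and 662 in immature thymic and 499.6, 669 and 594 in mature thymic cDC1. In cDC2 it had 1079, 649.8 and 1369 in the spleen, 1012, 912 and 1034 in immature thymic and 749, 654 and 385 in mature thymic cells. Neighbouring groups overlapped throughout its order of levels, whereas between mature and immature thymic cells the values overlapped in cDC1 and not in cDC2. The log2 fold change with maturation was -0.63 (SE 0.28, limma adjusted p = 0.0574) in cDC1 and -0.78 (SE 0.30, limma adjusted p = 0.0367) in cDC2, both under 2-fold, and Ltbr was called in none of the comparisons.

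**Figure D2:**
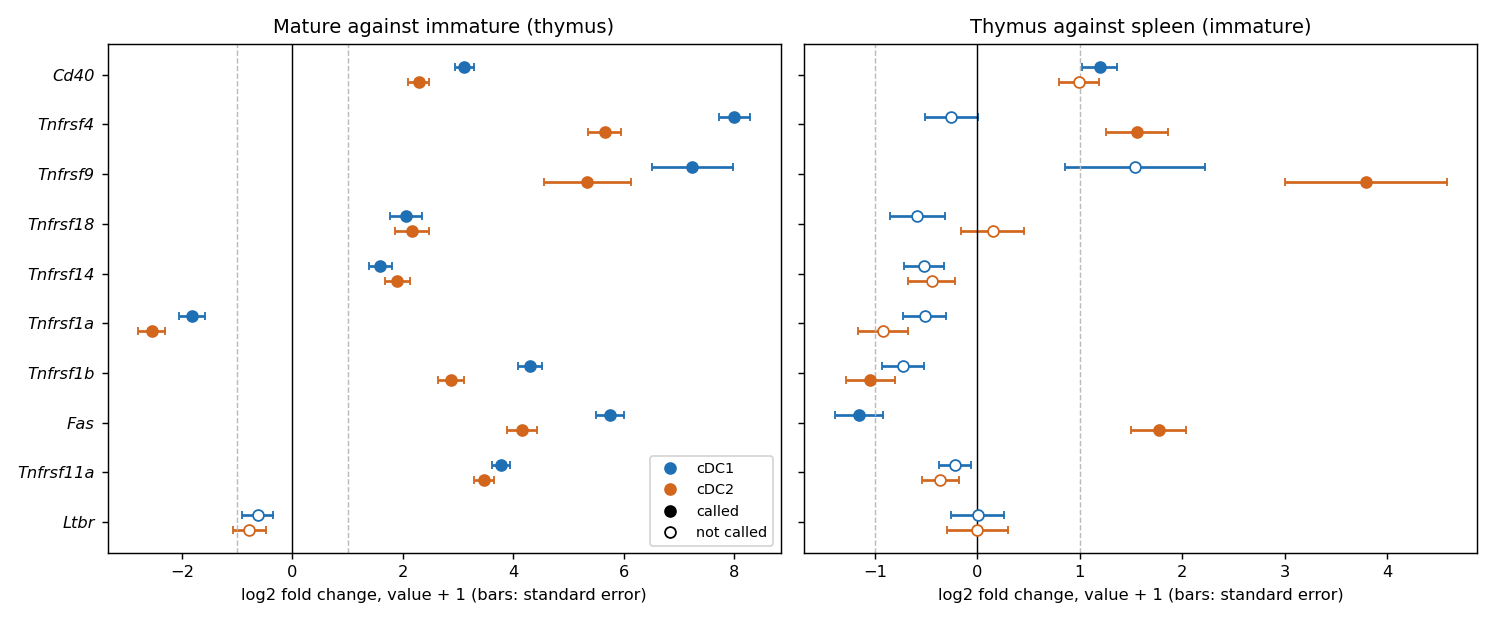
Log2 fold changes (x axis, on the value plus 1) of the 10 receptors (y axis) in cDC1 (blue) and cDC2 (orange), mature against immature thymic cells on the left and thymic against splenic immature cells on the right; bars are standard errors, filled points are called and dashed lines mark a 2-fold change. On the left 8 receptors lie to the right in both subsets and Tnfrsf1a to the left, and on the right Fas has opposite signs in cDC1 and cDC2.

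T cells express several of these receptors, and RNA of T-lineage genes was higher in the mature libraries. The summed level of 11 T cell and thymocyte markers was between 169 and 239 in immature and between 939 and 1985 in mature thymic cDC1, between 139.8 and 346 in immature and between 988 and 1757 in mature thymic cDC2, and between 11.3 and 109.8 in the spleen. In both mature groups 10 of the 11 exceeded a value of 10 in some sample, and Ptcra was the exception, with at most 2.4. Foxp3, the defining gene of regulatory T cells, was at 0 in all mature thymic cDC1 samples and between 4.61 and 6.28 in mature thymic cDC2, where Tnfrsf4 had 3501 to 5717. Ikzf2, the other gene of the regulatory T cell list, had means of 73.8 in immature and 122 in mature thymic cDC1 and of 62.7 and 127 in cDC2. In mature thymic cDC1 the macrophage markers also summed to more, 5925 to 8559 against 1841 to 2284 in immature cells, with Vcam1 at a mean of 6740 and the defining genes C1qa and Fcgr1 at 53.3 and 8.79. In cDC2 the macrophage markers summed to between 16176 and 25632 in the spleen and between 18717 and 25002 in immature thymic cells. Mature thymic cDC2 had between 6251 and 22518. Other lists summed to less in mature thymic cells. Thymic epithelial markers had 254 to 525 in mature against 575 to 705 in immature cDC1, and 677 to 1010 against 3487 to 3816 in cDC2. Stromal and endothelial markers had 20.3 to 121 against 292 to 396 in cDC1, and 63.6 to 131 against 2470 to 2700 in cDC2. The part of other cells in the rise of the receptors was not tested.

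The immature cells of both tissues were compared next. In cDC1, 2 of the 10 receptors differed between thymus and spleen, Cd40, which was higher in the thymus, and Fas, which was lower, while 8.77% of all genes were called. In cDC2, 4 receptors differed, against 14.2% of all genes, with Tnfrsf4, Tnfrsf9 and Fas higher and Tnfrsf1b lower in the thymus. The median log2 fold change of the members was -0.38 in cDC1 and 0.07 in cDC2, and that of all genes 0.00 and 0.02. The thymic samples in these comparisons were also those of the maturation comparisons.

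Thymic cDC2 exceeded splenic cDC2 in Tnfrsf4 by a log2 fold change of 1.56 (SE 0.30, limma adjusted p = 7.99e-04), in Tnfrsf9 by 3.79 (SE 0.79, limma adjusted p = 0.00156) and in Fas by 1.77 (SE 0.27, limma adjusted p = 7.32e-05), with no overlap in any of them. Within lanes 8 and 5 these differences were 1.34 and 1.64 for Tnfrsf4 and 1.77 and 1.72 for Fas, and 3.29 for Tnfrsf9 in lane 8. Lane 5 held 1 thymic cDC2 sample and lane 8 held 1 splenic cDC2 sample, and a lone sample was assumed to vary like the other groups. In lane 5 alone Tnfrsf4 was no longer called (limma adjusted p = 0.174) and Tnfrsf9 was not tested. The immature thymic cDC2 level was 1.94% of the mature thymic cDC2 level for Tnfrsf4, 2.48% for Tnfrsf9 and 5.55% for Fas.

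Fas in cDC1 went the other way, with a log2 difference, thymus minus spleen, of -1.15 (SE 0.24, limma adjusted p = 0.00169), although the highest thymic sample, 83.9, exceeded the lowest splenic one, 81.3. Its difference was -0.93 within lane 8 and -1.42 within lane 5, not called in either alone (limma adjusted p = 0.124 and 0.197). Tnfrsf1b was lower in thymic than in splenic cDC2, with a difference of -1.04 (SE 0.24, limma adjusted p = 0.00310), a call lost without splenic cDC2 replicate 3 (-0.82) and in lane 5 alone (-0.86). For Tnfrsf1a the difference in cDC2 was -0.92 (SE 0.24, limma adjusted p = 0.00985), under 2-fold, and it passed 2-fold in lane 8 alone (-1.34) and without splenic cDC2 replicate 2 (-1.23). In cDC1 the difference of Tnfrsf1b was -0.73 (SE 0.20, limma adjusted p = 0.0204), under 2-fold. For Tnfrsf9 in cDC1 the difference of 1.54 was not called by limma (SE 0.68, adjusted p = 0.181) but was by edgeR (2.07, adjusted p = 0.0836) and DESeq2 (2.08, adjusted p = 0.0478), on 1 to 22 thymic and 0 to 5 splenic reads. It was also called without thymic cDC1 replicate 4 (2.19). Other markers differed between the same cDC1 groups: the 7 B cell markers summed to between 634 and 1043 in the spleen and between 161 and 197 in the thymus, and the 5 stromal and endothelial markers to between 1554 and 1979 and between 292 and 396. The T cell and thymocyte markers went the other way, with 11.3 to 14.6 in the spleen and 169 to 239 in the thymus. So did the thymic epithelial markers (40.4 to 76.2 and 575 to 705) and the plasmacytoid DC markers (2015 to 2452 and 3909 to 5074). Their part in the differences of Cd40 and Fas was not tested.

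The tissue effects of cDC1 and cDC2 differed in 2 of the 10 receptors, against 4.98% of all genes. For Fas the difference of effects (cDC2 minus cDC1) was 2.92 (SE 0.36, limma adjusted p = 2.73e-05), and 2.70 and 3.13 within lanes 8 and 5. For Tnfrsf4 it was 1.81 (SE 0.40, limma adjusted p = 0.00832), and within lanes 8 and 5 it was 2.04 and 1.21, not called in either alone (limma adjusted p = 0.105 and 0.929). For Tnfrsf9 it was 2.25 and not called (SE 1.04, limma adjusted p = 0.324), but it was called with a pseudocount of 8 (1.59, limma adjusted p = 0.0704).

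**Figure D3:**
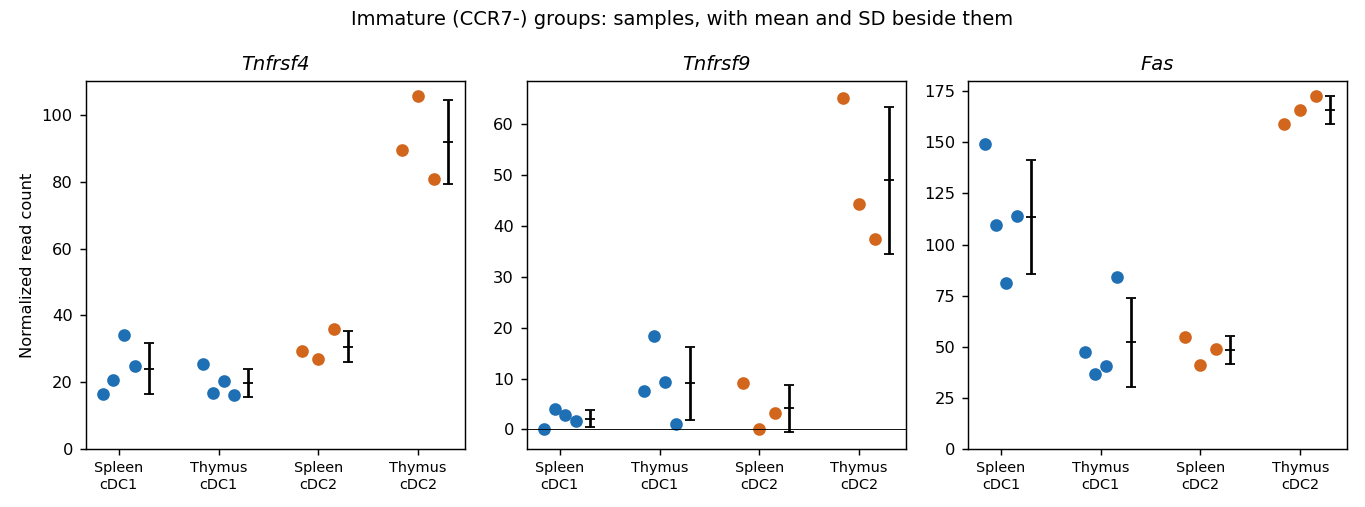
Normalized read counts (y axis, linear) of Tnfrsf4, Tnfrsf9 and Fas in the samples of the 4 immature groups, with the group mean and SD beside the points. Immature thymic cDC2 has the highest values of each gene, 81.0 to 106 for Tnfrsf4, 37.4 to 65.1 for Tnfrsf9 and 159 to 173 for Fas, and thymic and splenic cDC1 overlap in all 3.

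Markers of maturation and of other cells were measured in the same groups. The 7 mature DC markers summed to between 40471 and 54292 in immature thymic cDC2, between 42506 and 53724 in splenic cDC2 and between 17235 and 19468 in immature thymic cDC1, and 7 of 7 exceeded a value of 10 in some sample of each group. Ccr7, used for the sort, had a mean of 3419 in immature thymic cDC2, 3783 in splenic cDC2 and 714 in immature thymic cDC1, against 99928 in mature thymic cDC2. Socs2 had 679, 19.97 and 44.2 in the same 3 immature groups, Ccl22 had 15572, 218 and 1809, and Fscn1 had 3603, 662 and 366. The other 3 markers of this list had lower means in immature thymic than in splenic cDC2, namely Relb (2805 against 7452), Cd83 (22089 against 35574) and Esam (7.93 against 67.6). The T cell and thymocyte markers summed to between 139.8 and 346 in immature thymic cDC2 and between 26.9 and 109.8 in splenic cDC2, and the 5 thymic epithelial markers to between 3487 and 3816 against between 84.7 and 152. Of these epithelial markers Epcam alone had a mean of 3516 in immature thymic cDC2, and Foxn1, which defines thymic epithelium, had 5.35. The 6 plasmacytoid DC markers summed to between 4744 and 5988 in immature thymic and between 860.3 and 1408 in splenic cDC2, and the 5 NK cell markers to between 4.02 and 11.7 and between 114 and 218. The part of cells in transition or of other types in the values of Tnfrsf4, Tnfrsf9 and Fas was not tested.

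Between the subsets, 2 of the 10 receptors differed in the spleen (16.6% of all genes), 4 in the immature thymus (16.4%) and 1 in the mature thymus (18.9%). Tnfrsf1b was higher in cDC2 than in cDC1 by 2.36 (SE 0.22, limma adjusted p = 6.19e-08) in splenic cells and 2.05 (SE 0.22, limma adjusted p = 5.25e-07) in the immature thymus, and by 0.61 (SE 0.24, limma adjusted p = 0.0679), with overlap, in mature cells. Fas was lower in splenic cDC2 than in splenic cDC1, with a difference of -1.19 (SE 0.25, limma adjusted p = 0.00126), and higher in immature thymic cDC2 than cDC1, by 1.73 (SE 0.25, limma adjusted p = 2.58e-05). The splenic difference was -0.96 within lane 8, where it was not called (limma adjusted p = 0.207), and -1.41 within lane 5.

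Tnfrsf4 and Tnfrsf9 were called between subsets in the immature thymus, with differences of 2.19 (SE 0.28, limma adjusted p = 5.12e-06) and 2.66 (SE 0.74, limma adjusted p = 0.0115). In lane 5 alone, with 1 sample of each subset, the difference of Tnfrsf4 was 1.78 and not called, and with a pseudocount of 0.1 that of Tnfrsf9 was 2.94 and not called (limma adjusted p = 0.138). The difference of Tnfrsf18 in the immature thymus was 0.90 (SE 0.29, limma adjusted p = 0.0282), under 2-fold, and it passed 2-fold in lane 8 alone (1.11) and without thymic cDC2 replicate 1 (1.06) or thymic cDC1 replicate 3 (1.10). In mature cells the 1 called receptor was Tnfrsf18, higher in cDC2 by 1.01 (SE 0.31, limma adjusted p = 0.0219). This value lay at the 2-fold limit and lost the call in DESeq2 (0.96) and without mature cDC1 replicate 1 or 2 or mature cDC2 replicate 1 or 2, with values of 0.84 to 1.25 over the 6 samples left out in turn.

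The maturation effects themselves differed between subsets in 3 of the 10 receptors, against 13.6% of all genes, and each of the 3 was smaller in cDC2. The difference (cDC2 minus cDC1) was -2.35 for Tnfrsf4 (SE 0.41, limma adjusted p = 6.73e-04), -1.60 for Fas (SE 0.37, limma adjusted p = 0.00672) and -1.44 for Tnfrsf1b (SE 0.32, limma adjusted p = 0.00536). For each of these 3 genes the mature groups overlapped and the immature thymic cDC2 lay above the immature thymic cDC1. The estimate for Tnfrsf9, -1.91, had a SE of 1.08 and was not called (limma adjusted p = 0.272), and that of Cd40, -0.83 (SE 0.26, limma adjusted p = 0.0428), was under 2-fold. The median over the members was -0.78, against 0.10 for all genes.

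**Figure D4:**
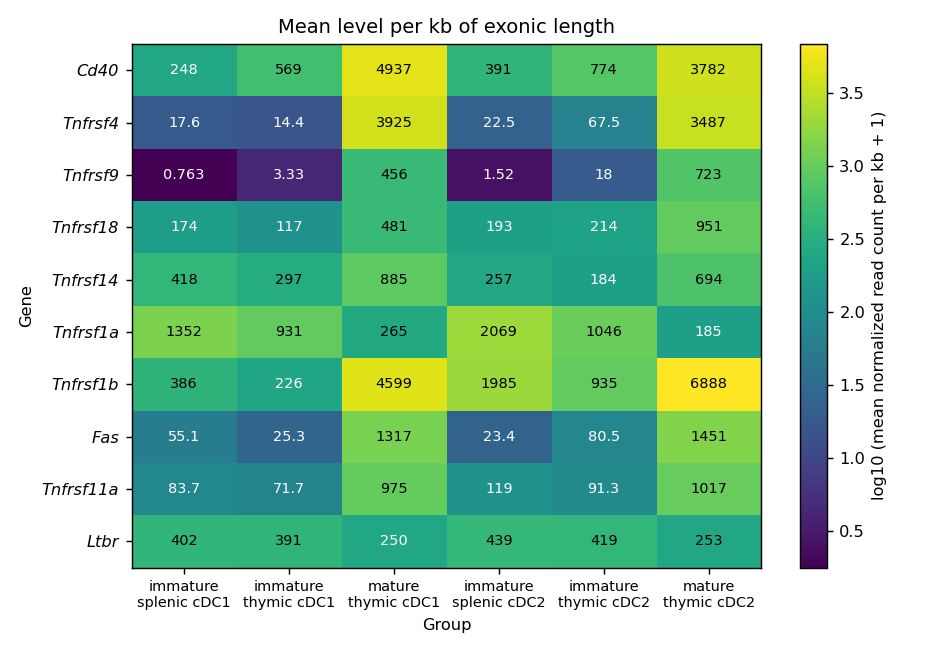
Mean normalized read count per kb of exonic length of the 10 receptors (rows) in the 6 groups (columns), with the colour on a log10 scale of the value plus 1 and the value printed in each cell. Tnfrsf1a is the highest row in the 4 immature groups and among the 2 lowest in the mature groups, where Tnfrsf1b, Cd40 and Tnfrsf4 are highest.

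Levels can be compared between genes per kb of exonic length, taken from all annotated exons of a gene. On this scale Tnfrsf1a had the highest mean of the 10 in every immature group, with 1352 in splenic cDC1, 931 in immature thymic cDC1, 2069 in splenic cDC2 and 1046 in immature thymic cDC2. Its lead was narrow in immature cDC2, where Tnfrsf1b had 1985 in the spleen and 935 in the thymus. In mature thymic cDC1 the 3 highest were Cd40 (4937), Tnfrsf1b (4599) and Tnfrsf4 (3925), and in mature thymic cDC2 they were Tnfrsf1b (6888), Cd40 (3782) and Tnfrsf4 (3487). Tnfrsf9 was the lowest in each immature group, from 0.763 in splenic cDC1 to 18.0 in immature thymic cDC2, and the lowest in mature cells were Ltbr in cDC1 (249.6) and Tnfrsf1a in cDC2 (185).

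The rest of the pathway was described from 3 lists, whose counts stand beside 45.7% of all genes called with maturation in cDC1 (21.3% higher, 24.5% lower) and 35.6% in cDC2 (18.6% higher, 17% lower). Of 18 other genes of the receptor family 13 were tested, and with maturation 3 rose and 7 fell in cDC1 and 4 rose and 5 fell in cDC2, with median log2 fold changes of -3.42 and -1.29. Relt, an orphan member, rose by 3.19 (SE 0.25, limma adjusted p = 9.37e-10) in cDC1, and its mean went from 1480 to 5192 in cDC2. Tnfrsf8, which encodes CD30, went from a mean of 9.78 to 91.8 in cDC2 and from 0.812 to 39.0 in cDC1. Tnfrsf13b, which encodes the BAFF and APRIL receptor TACI, fell by 5.32 (SE 0.43, limma adjusted p = 1.21e-09) in cDC1 and fell by 3.62 (SE 0.45, limma adjusted p = 1.49e-06) in cDC2. Tnfrsf21, the death receptor DR6, fell by 4.67 (SE 0.25, limma adjusted p = 2.16e-12) in cDC1, and its mean went from 759 to 231 in cDC2. Ngfr, the low-affinity neurotrophin receptor, had a mean of 964 in immature thymic cDC2, against 31.7 in mature thymic and 11.9 in splenic cDC2.

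Of the 18 ligands 17 were tested, all but Cd40lg, which had a value of at most 13.9 in any sample. With maturation 8 rose and 6 fell in cDC1 and 7 rose and 3 fell in cDC2, with medians of 0.21 and 0.55, beside the same 45.7% and 35.6% of all genes. Among the ligands of members, Tnfsf4, the OX40 ligand, rose by 4.91 (SE 0.71, limma adjusted p = 5.51e-06) in cDC1 and 3.55 (SE 0.76, limma adjusted p = 6.39e-04) in cDC2, to means of 97.2 and 462. Tnfsf9, the CD137 ligand, rose from 254 to 2599 in cDC1 and from 714 to 1773 in cDC2, and Tnf from 1333 to 6458 and from 1044 to 3253. Lta, which encodes lymphotoxin alpha, rose by 6.43 (SE 0.70, limma adjusted p = 1.14e-07) in cDC1 and 3.85 (SE 0.75, limma adjusted p = 2.43e-04) in cDC2. Tnfsf18, the GITR ligand, was at 0 in every mature thymic cDC1 sample, and Tnfsf14, which encodes LIGHT, the ligand of HVEM and the lymphotoxin beta receptor, fell by 2.90 (SE 0.48, limma adjusted p = 2.91e-05) in cDC1 and fell by 3.43 (SE 0.52, limma adjusted p = 1.42e-05) in cDC2. Fasl was highest in splenic cDC2, with a mean of 15.8, and at 0 in every immature thymic cDC2 sample. The NK cell markers summed to between 114 and 218 in splenic cDC2 and to at most 24.0 in any other group, and their part in the Fasl values was not tested. Ltb, which encodes lymphotoxin beta, rose in cDC1 by 1.40 (SE 0.29, limma adjusted p = 3.44e-04), from a mean of 138 to 355, whereas in cDC2 the means were 971 and 505 and the change of -0.998 was not called, and the maturation effects differed by -2.40 (SE 0.43, limma adjusted p = 7.89e-04). Ltb was also lower in thymic than in splenic immature cells, at -1.68 in cDC1 and -1.37 in cDC2 (limma adjusted p = 1.56e-04 and 0.00334). Tnfsf11, the RANK ligand, was at 0 in every immature thymic cDC1 sample and rose to a mean of 7.60 with maturation, on 4 to 6 reads per sample. In cDC2 it rose from a mean of 1.71 (0 to 3 reads) to 13.5 (10 to 28 reads). Cd70, the CD27 ligand, had the largest estimate of the ligands in both subsets, at 7.75 (SE 0.62, limma adjusted p = 1.29e-09) in cDC1 and 4.48 (SE 0.67, limma adjusted p = 1.26e-05) in cDC2.

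All 24 adaptors and regulators that act next to the receptors were tested, and with maturation 12 rose and 1 fell in cDC1 and 11 rose and 1 fell in cDC2, with medians of 1.01 and 0.77, again beside 45.7% and 35.6% of all genes called. Birc2, which encodes the ubiquitin ligase cIAP1, rose by 4.21 (SE 0.19, limma adjusted p = 3.47e-13) in cDC1 and 3.64 (SE 0.21, limma adjusted p = 2.91e-11) in cDC2. Cflar, which encodes the caspase-8 inhibitor c-FLIP, rose by 3.54 (SE 0.21, limma adjusted p = 1.22e-11) and 2.18 (SE 0.22, limma adjusted p = 9.76e-08). Traf1, an adaptor of Tnfrsf1b and Tnfrsf9 complexes, rose by 3.40 (SE 0.16, limma adjusted p = 5.49e-13) and 2.61 (SE 0.17, limma adjusted p = 2.40e-10). Traf4 was the 1 that fell, at -1.07 on the log2 scale in cDC1 and at -1.37 in cDC2 (limma adjusted p = 0.0203 and 0.00887). Between thymic and splenic immature cells 3 of the 24 were higher and 1 lower in cDC1 and 0 higher and 1 lower in cDC2, where 8.77% and 14.2% of all genes were called, the last being Map3k14, the NIK kinase, at -1.22 (SE 0.27, limma adjusted p = 0.00295).

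**Figure D5:**
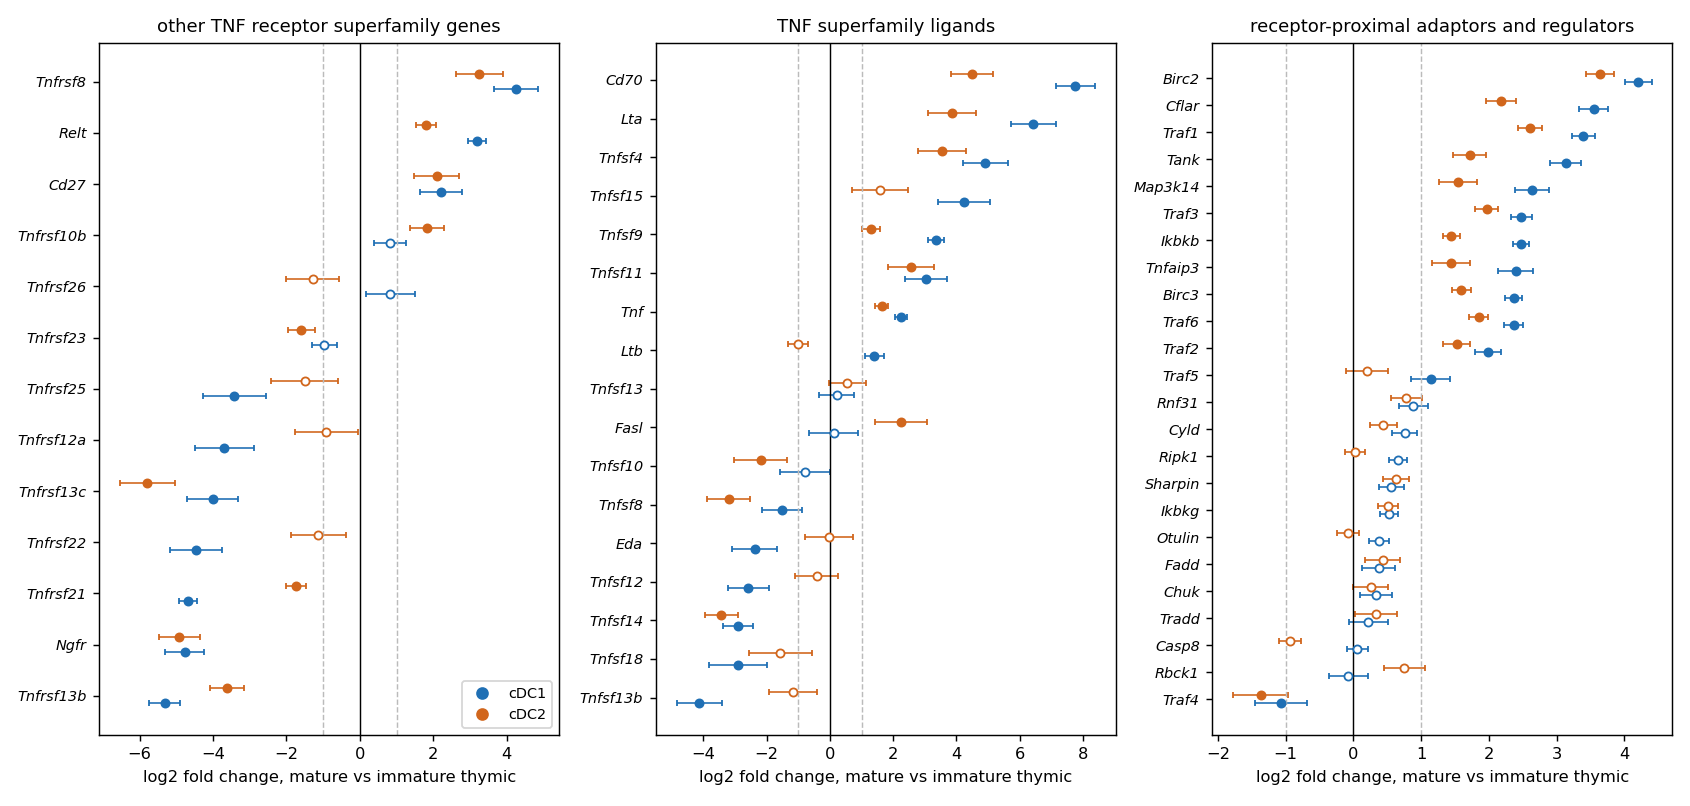
Log2 fold change (x axis) between mature and immature thymic cells of the tested genes (y axis) of 3 lists, in cDC1 (blue) and cDC2 (orange), with standard errors; filled points are called, and dashed lines mark a 2-fold change. Of the adaptors and regulators 12 and 11 lie to the right as called and Traf4 alone to the left, whereas the other receptors and the ligands have called genes on both sides.

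The genes whose pattern over the 6 groups was most like that of a member were sought among all tested genes by the root mean square difference of centred log2 group means, for the 9 members whose means spanned more than 2 log2 units. The closest match was that of Tnfrsf11a with Crebl2, a difference of 0.06. Cd40 was closest to Tuba1a (0.21) and Cflar (0.21), Tnfrsf1a to Hcst (0.17), Tnfrsf18 to Dtx3 (0.15), Tnfrsf9 to Foxh1 (0.22) and Tnfrsf4 to Rnf152 (0.30). Fas was the least matched, with 0.42 to its nearest gene, 2200002D01Rik. Within the family the most alike pair was Cd40 and Tnfrsf11a (0.59), followed by Tnfrsf14 and Tnfrsf18 (0.70), whereas the chromosomal neighbours Tnfrsf4 and Tnfrsf18 differed by 2.51 and Tnfrsf1a and Ltbr by 0.94. This measure also counts the size of the changes, and the means of Tnfrsf4 and Tnfrsf18 spanned 8.01 and 3.07 log2 units.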

How the data were processed

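RNAseq libraries of sorted cDCs were used in the form deposited. Per the methods, the authors used Cutadapt for trimming, STAR (version 2.6 in the processing notes) for alignment to mm10, HTSeq-count with Ensembl genes for counting and, for normalization, DESeq2 (version 1.24.0 in the notes). The Ensembl release and the strand setting of the counting are not given in the sources used here. The deposited values are a normalized signal, the read count divided by 1 size factor per library. All values (100%) were whole multiples of 1 read within 0.001, and reads were recovered by division. A count test (edgeR) had been written down for the case that the files held raw counts. Because the values are normalized, limma (version 3.58.1, R 4.3.3) was used, on log2 of the value plus 1, with 1 mean for each of the 6 groups and eBayes with trend, over the 14970 genes that reached 10 in 3 or more samples. Adjusted p-values are Benjamini-Hochberg over all tested genes, and a call needed an adjusted p below 0.1 and a change above 2-fold. Alternatives on the recovered reads were the edgeR quasi-likelihood test (version 4.0.16, 15059 genes) and the DESeq2 Wald test (version 1.42.0). Others covered the pseudocount (0.1 and 8), the filter, scaling, lanes, repeated libraries, a replicate block and each sample left out, and lane 5 alone was added after the data were seen. The method was also run on simulated data, in which far fewer genes changed than were called here with maturation. No result given here rests on that run. Gene positions and exonic lengths are from GENCODE M21, with 37607 of 37734 identifiers found. The 10 members and all gene lists were chosen with earlier results of these data known. All members are named; from the other lists, up to 3 called genes per direction in each maturation and tissue comparison, and ligands of members. The depth gives counting error only, and no molecular identifiers are mentioned for these libraries.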

Additional observations from a re-analysis of the deposited data

Results flagged for a closer look

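In 2 of the 20 sets of 4 samples tested, 1 sample stood apart by Dixon's test, where chance gives about 1 in 20. These were Cd40 in immature thymic cDC1, with 2494 against 1834 for the next sample, and Tnfrsf1a in splenic cDC1, with 4695 against 3220. Maturation effects differed between cDC2 and cDC1 by the test of the difference itself for Tnfrsf1b (-1.44, limma adjusted p = 0.00536), Tnfrsf4 (-2.35, limma adjusted p = 6.73e-04) and Fas (-1.60, limma adjusted p = 0.00672). Tissue effects differed for Tnfrsf4 (1.81, limma adjusted p = 0.00832) and Fas (2.92, limma adjusted p = 2.73e-05). Explanations for these differences were not tested.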

How the results depend on the processing

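Of 37 alternatives, those that changed only the threshold of the call gave counts of members and no values of single members. Over the others, 1807 of 1892 recomputed values of single members kept their direction and side of the threshold, 12 gained the call (Cd40, Tnfrsf1a, Tnfrsf9 and Tnfrsf18), 15 lost it, and 58 changed sign, none of them a called value. The cause was not tested. Of the members called, thymus against spleen gave in cDC1 1 in lane 8, 1 in lane 5, 0 above 4-fold and 4 by adjusted p alone, and in cDC2 1 in lane 5 and 1 above 4-fold. Members called between subsets in the spleen were 1 in lane 8, 1 above 4-fold and 6 by adjusted p alone, in the immature thymus 2 in lane 5 (1 sample of each subset) and 7 by adjusted p alone, and in the mature thymus 0 with DESeq2, 0 above 4-fold, 2 by adjusted p alone and 0 to 1 with each sample left out. For the members' difference of maturation effects 1 was called above 4-fold, and for that of tissue effects 1 in lane 8, 1 in lane 5 and 1 above 4-fold. Lane 5 alone tested 9 of the 10 members. Same-numbered cDC1 and cDC2 libraries deviated together with correlations of -0.08 to 0.46 in the spleen and -0.15 to 0.28 in the immature thymus, and not every sample correlated best with its own number, so that the numbers were not taken as pairs. With the number as a replicate block 2 members were called between subsets in the spleen and 4 in the immature thymus, as without it.

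For Ltbr, thymus against spleen in cDC1 was -0.042 with edgeR, -0.054 with DESeq2, -0.0076 with TMM scaling, -0.051 with 1 sample per number, -0.070 with lane as covariate, -0.31 in lane 8 and -0.14 to 0.24 with each sample left out. In cDC2 Ltbr gave 0.0062 with TMM scaling, 0.27 in lane 5 and -0.30 to 0.23 with samples left out, and the tissue effects of Ltbr differed by 0.014 with TMM scaling, 0.049 with 1 sample per number and -0.31 to 0.23. Between subsets Ltbr ranged with samples left out from -0.11 to 0.43 in the spleen, -0.028 to 0.21 in the immature and -0.22 to 0.26 in the mature thymus, where edgeR gave 0.047 and TMM scaling 0.021, and its maturation effects differed by -0.34 to 0.14. For Tnfrsf18, thymus against spleen in cDC2 was -0.14 in lane 5 and -0.052 to 0.32 with samples left out, splenic cDC2 against cDC1 -0.10 in lane 8 and -0.0026 to 0.37, the difference of maturation effects -0.10 in lane 8 and -0.087 to 0.34, and that of tissue effects -0.033 in lane 5. Tnfrsf4 was 0.44 for thymus against spleen in cDC1 in lane 5 and -0.32 to 0.058 between mature subsets with samples left out. Tnfrsf11a was 0.028 for the difference of tissue effects in lane 5 and -0.069 to 0.14 between mature subsets. Tnfrsf14 was -0.0085 with 1 sample per number, -0.20 in lane 5 and -0.14 to 0.20 for the difference of tissue effects. Tnfrsf9 was -0.35 to 1.32 between splenic subsets with samples left out.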
